A study of Mus musculus with 12 samples.

Results

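The 40 mitosis and spindle genes described here were chosen by name, as textbook genes of cell division. They came out of 38887 gene identifiers in a count table from Ly6G+ mouse spleen cells. Earlier results of these data were known when the list was made. All 40 were found, and all 40 were among the 15494 genes with enough counts to be tested. They fall into 8 groups by role: a proliferation mark and a chromosome structure enzyme (2 genes), mitotic cyclins and kinases (7), centromere and outer kinetochore (6), spindle checkpoint (4), chromosomal passenger complex (4), spindle motors and spindle-binding proteins (8), anaphase and mitotic exit (4), and central spindle and cytokinesis (5).

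Polyadenylated RNA was sequenced from spleen cells carrying Ly6G, a surface protein of neutrophils, of mice at 4 ages (2, 7 and 14 days and 6 weeks after birth), with 3 libraries per age and 12 in all. The labels call the cells PMN-MDSC at every age, the abbreviation of polymorphonuclear myeloid-derived suppressor cells, which are neutrophils able to restrain T cells, and the series asks about a passing suppressive activity in newborns. No genotype, treatment, strain or sex is given in the labels, nor how many mice went into a library. A p-value here sets a difference between ages against the variation among libraries of the same age, pooled over the 4 ages. That variation may be technical, and for the genes described here it was not equal between ages. Library totals lay between 34495767 and 38795913 counts, and levels are given as CPM, the usual scaling of counts to a common normalized library size.

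Neutrophil genes were abundant in all 12 libraries: S100a8 stood at 8701 to 16340 CPM, S100a9 at 14410 to 24850 CPM, and Ly6g itself at 74.9 to 189.6 CPM. Ly6g differed by age, with 74.9 to 111.7 CPM at 2 days and 94.5 to 115.6 at 7 days. It had 156.3 to 189.6 CPM at 14 days and 168.3 to 184.7 at 6 weeks, all above the younger ages. S100a8 and S100a9 did not split this way. The sum over 17 genes of mature neutrophils was 39450 to 70950 CPM at 2 days, 34680 to 37200 at 7 days, 42320 to 55710 at 14 days and 51830 to 57590 at 6 weeks. The sum over 4 Y-linked genes ran from 3051 to 3299 counts at 2 days and from 1816 to 4010 at 7 days, and was at most 1 count in each library of 14 days and 6 weeks. The sex of the mice and the older against the younger ages therefore cannot be told apart. Library 2 of the 2-day group stood apart from the other 2 of its age (Spearman correlations of log CPM across genes of 0.971 and 0.98, against 0.992 between the other 2). To a smaller degree so did library 1 of the 14-day group (0.986 and 0.986, against 0.994).

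A neutrophil is made in bone marrow, and in the newborn also in spleen and liver, from precursors that divide several times and then leave the cell cycle. Mature neutrophils do not divide, so transcripts of the mitotic machinery mark precursors or other dividing cells. In mitosis, cyclin-dependent kinase 1 with cyclins A and B starts the division, the kinetochores tie each chromosome to spindle microtubules pulled by kinesin motors, the checkpoint holds anaphase until every kinetochore is attached, and the central spindle then guides cytokinesis. RNA from a whole population does not show which cells it came from: fewer cells of a type and less RNA per cell cannot be told apart.

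The 40 genes formed a peak in time. Their summed level was 1194, 659 and 947 CPM in the 3 libraries of 2 days, 2956, 2921 and 3035 at 7 days, 2112, 1986 and 2062 at 14 days, and 956, 1396 and 1117 at 6 weeks. The libraries of 7 days were all highest, those of 14 days came next, and those of 2 days and 6 weeks overlapped each other. Of the 40 genes, 37 had their highest mean at 7 days, and Ccnb2, Cenpa and Kif23 had it at 14 days. The lowest mean was at 2 days for 37 genes and at 6 weeks for Mki67, Mad2l1 and Nek2. All 40 differed across the 4 ages by edgeR's quasi-likelihood test with Benjamini-Hochberg adjustment at a threshold of 0.05, against 69.2% of all genes tested.

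**Figure D1:**
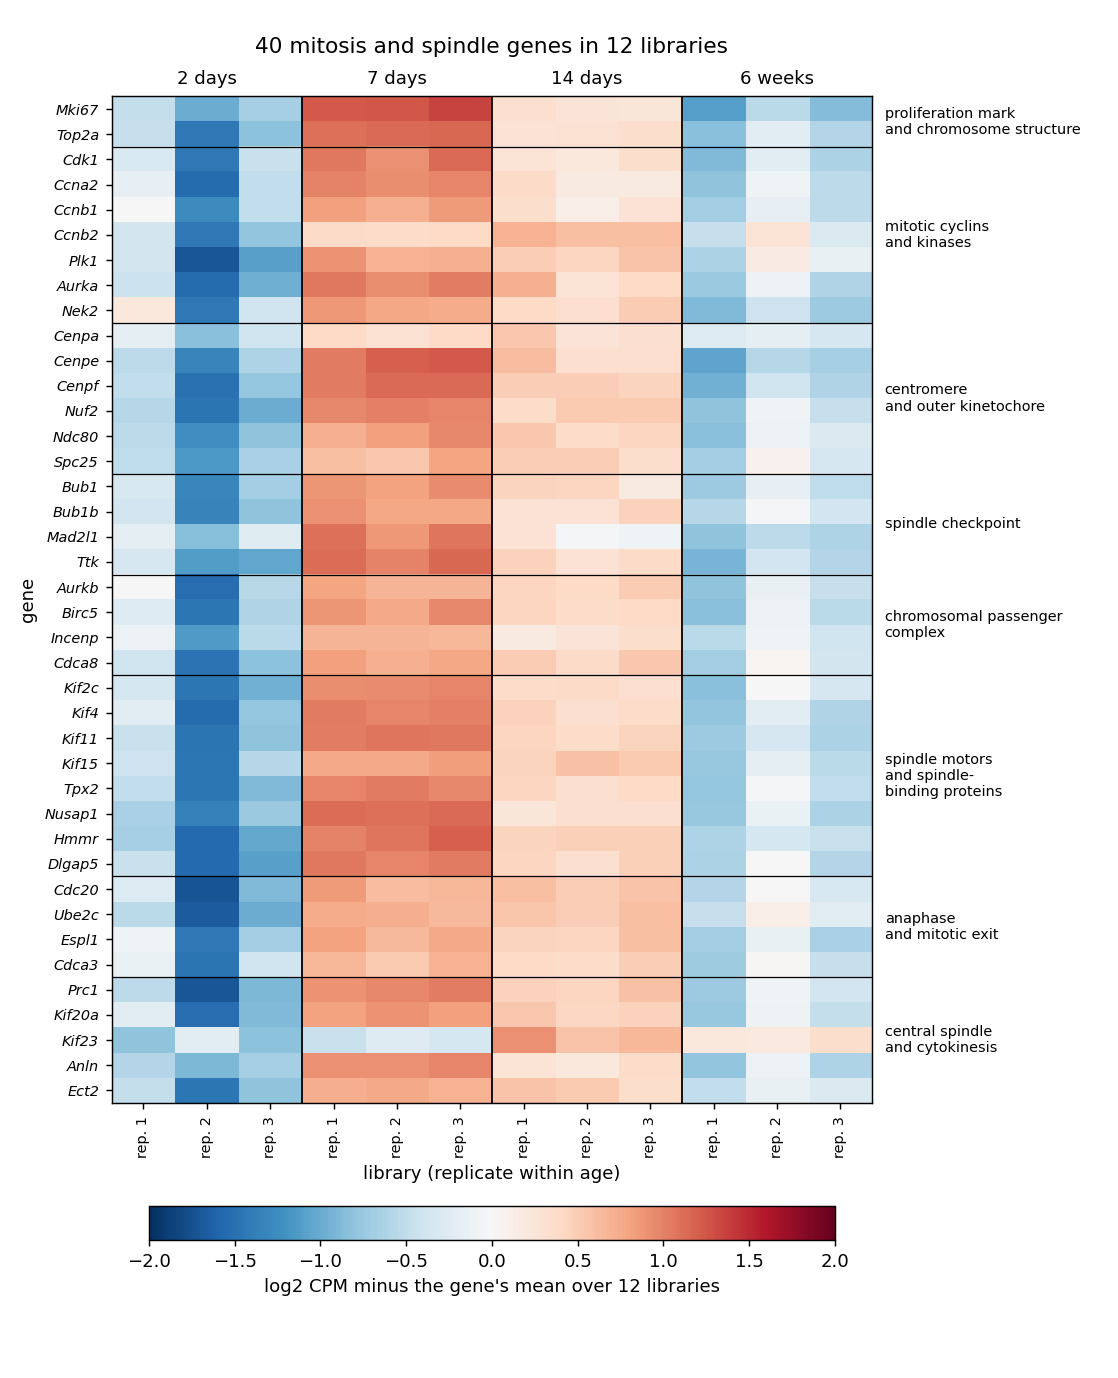
Level of each of the 40 mitosis and spindle genes (rows, by role) in the 12 libraries (columns, by age and replicate), as log2 CPM minus the gene's own mean over the 12 libraries. The mean is highest at 7 days in 37 rows, library 2 of the 2-day group is the lowest of its age in 39 rows, and Kif23 is highest at 14 days.

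The step from 2 to 7 days was an increase of almost the whole set. At 7 days 39 of the 40 genes were higher than at 2 days and none was lower, against 22.9% of all genes higher (48.7% called in either direction), and the median log2 fold change of 7 over 2 days was 1.63, against -0.01 over all genes. The range ran from 0.24 for Kif23, the gene that did not pass, and 0.82 for Cenpa to 2.00 for Nusap1 and 2.12 for Hmmr. In the same 39 genes each library of 7 days lay above each library of 2 days, against 27.4% of all genes.

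The next step took back part of this increase. At 14 days 14 genes were lower than at 7 days, against 21.9% of all genes lower and 24% higher (45.9% called in either direction), and Kif23 was the 1 gene that was higher. The other 25 did not pass, and the median was -0.49, against 0.02 over all genes, with a range of -0.99 for Mki67 to 1.08 for Kif23. In 37 of the 40 the libraries of 14 days all lay below those of 7 days, against 31.7% of all genes, and in Kif23 and Ccnb2 they all lay above, against 32.2%. The count of 14 depended on single libraries: it was 22 without library 1 and 26 without library 2 of 2 days, 9 without library 3 of 7 days, 9 without library 1 and 8 without library 2 of 14 days, and 34 when the 2 ages were fitted alone. Mki67, Top2a, Cenpe, Mad2l1, Ttk, Nusap1, Hmmr and Anln passed under every alternative tried, as did the rise of Kif23, and Cdk1, Ccna2, Cenpf, Kif11, Tpx2 and Dlgap5 did not.

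At 14 days the set was still above its 2-day level. Compared with 2 days, 38 genes were higher at 14 days and none was lower, against 12.8% of all genes higher and 12.3% lower (25.1% called in either direction), with a median of 1.2, against -0.03 over all genes. Mad2l1 and Nek2 were the 2 genes that did not pass, and Cdk1, Ccna2, Ccnb1, Aurkb, Incenp and Cdca3 missed the threshold in at least 1 alternative. All 40 genes had their 14-day libraries above their 2-day libraries, against 16.9% of all genes.

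Between 14 days and 6 weeks the set came down further. At 6 weeks 33 genes were lower than at 14 days and none was higher, against 9.68% of all genes lower and 9.26% higher (18.9% called in either direction), with a median of -0.81 and a range of -1.19 for Cenpe to -0.47 for Kif23. Ccna2, Ccnb1, Plk1, Incenp, Kif2c, Cdca3 and Kif23 did not pass. In all 40 genes the 6-week libraries lay below the 14-day libraries, against 22.2% of all genes. The number that passed the test moved with the libraries used: it was 18 without library 1, 15 without library 2 and 18 without library 3 of 14 days, and 9 without library 1 and 12 without library 3 of 6 weeks. Mki67, Cenpa, Cenpe, Cenpf, Ttk, Kif11, Kif15, Hmmr and Anln passed under every alternative tried, and the other 24 missed the threshold in at least 1. Set beside 7 days, 38 genes were lower at 6 weeks, against 24.5% of all genes, and the median was -1.33. In that pair Kif23 was higher, against 26.6% of all genes (51% called in either direction), and Ccnb2 did not pass. In 39 genes the 6-week libraries all lay below the 7-day libraries, against 34.3% of all genes, and in Kif23 they all lay above, against 35.6%.

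Between the youngest and the oldest age few genes differed. At 6 weeks Ube2c, Kif23, Ect2, Plk1, Ccnb2 and Hmmr were higher than at 2 days and none was lower, 6 of 40 against 19.7% of all genes higher and 20.7% lower (40.4% called in either direction). The median was 0.31, against -0.04 over all genes, and the range ran from -0.27 for Nek2 to 0.85 for Kif23. Single libraries moved this median: it was 0.57 without library 1 and 0.10 without library 2 of 2 days, with 26 genes above and 14 below 0 in the second case, and 0.16 without library 2 of 6 weeks. Ube2c, Kif23 and Hmmr had no overlap between the 6-week and the 2-day libraries, 3 of 40 against 23.3% of all genes. The count of 6 was 21 without library 1, 3 without library 2 and 2 without library 3 of 2 days, and 13 without library 1, 2 without library 2 and 3 without library 3 of 6 weeks. Without library 2 of 2 days, 2 genes were lower at 6 weeks. Of the 6 genes, only Kif23 passed under every alternative tried.

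**Figure D2:**
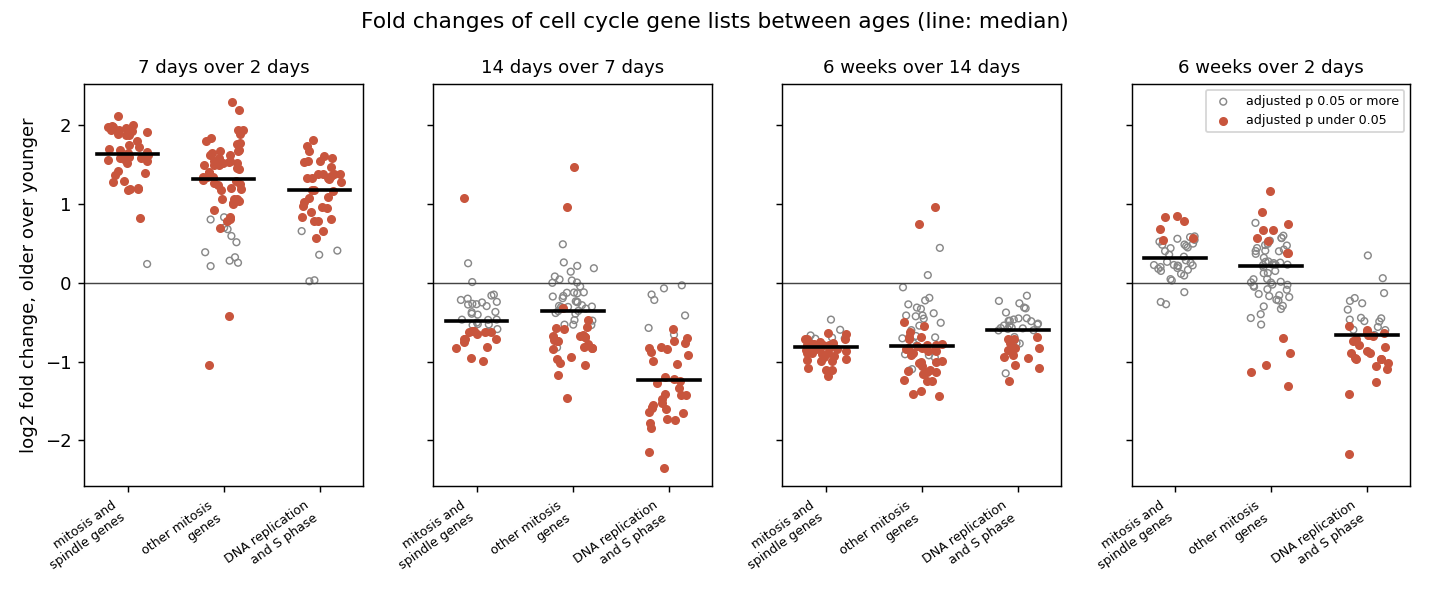
Log2 fold changes, older over younger age, of each gene (points) of the 40 mitosis and spindle genes, of 64 other mitosis genes and of 40 DNA replication genes in 4 pairs of ages. Filled points have an adjusted p under 0.05, and the thick line is the median of the list. The mitosis medians are 1.63 for 7 over 2 days, -0.49 for 14 over 7 days, -0.81 for 6 weeks over 14 days and 0.31 for 6 weeks over 2 days, while the DNA replication median for 6 weeks over 2 days is -0.66. The mitosis median for 6 weeks over 2 days ranges from 0.10 to 0.57 when single libraries are left out.

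The spread between libraries differed by age and was shared by the genes. The coefficient of variation between the 3 libraries had a median over the 40 genes of 33.9% at 2 days, 4.12% at 7 days, 5.37% at 14 days and 21.9% at 6 weeks. At 2 days library 1 was the highest of its age in 39 genes and library 2 the lowest in 39, with Kif23 the other way round in library 2. At 6 weeks library 2 was the highest in 39 genes and library 1 the lowest in 38. At 7 and 14 days no library led more than 20 genes. In the main fit each pair of ages was tested against a spread pooled over all ages. A gene that did not pass at 14 over 7 days was therefore not judged by the spread of those ages alone.

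Levels were also counted per kilobase of exon, with length as the union of all annotated exons of a gene. That length can exceed that of the transcript present, so the order of genes depends on it. By this measure Mki67 was the most abundant of the 40 at 2 days (16.5 CPM per kb) and 7 days (64.8 CPM per kb). At 14 days and 6 weeks Ccnb2 came first, at 38.6 and 22.9 CPM per kb, with Mki67 at 32.6 and 15.2. Cdc20 was among the 3 most abundant at each age, with 11.9, 35.2, 31.5 and 17.6 CPM per kb from the youngest to the oldest. Ttk, a checkpoint kinase, was the least abundant at each age, with 0.802, 2.94, 1.80 and 0.901 CPM per kb.

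Mki67 and Top2a form the first group. Mki67 (ENSMUSG00000031004, chromosome 7, 135689784 to 135716361, minus strand, build mm10) encodes Ki-67, a protein that coats mitotic chromosomes and is used as a mark of cycling cells. Its level was 193, 135 and 169.5 CPM at 2 days and 631, 636 and 690.4 at 7 days. Mki67 then had 342, 322 and 321 CPM at 14 days and 125, 185 and 148 at 6 weeks. The 7-day libraries were the highest and the 14-day libraries the next, and those of 2 days and 6 weeks overlapped. Mki67 rose at 7 over 2 days (log2 fold change 1.97 ± 0.16, adjusted p = 2.79e-06, where ± is the standard error for every fold change), and fell by 0.99 at 14 over 7 days (adjusted p = 0.000381) and by 1.10 at 6 weeks over 14 days (adjusted p = 0.000683). At 6 weeks over 2 days the difference was -0.12, adjusted p = 0.579. Top2a, the topoisomerase that untangles sister chromatids, had mean levels of 86.5 ± 27.8 CPM at 2 days, 340.3 ± 6.69 at 7 days, 193 ± 3.96 at 14 days and 109 ± 24.3 at 6 weeks (SD, n = 3 libraries, as for every mean below). It passed the test in the same 3 steps, with log2 fold changes of 1.98 at 7 over 2 days, -0.82 at 14 over 7 days and -0.83 at 6 weeks over 14 days.

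**Figure D3:**
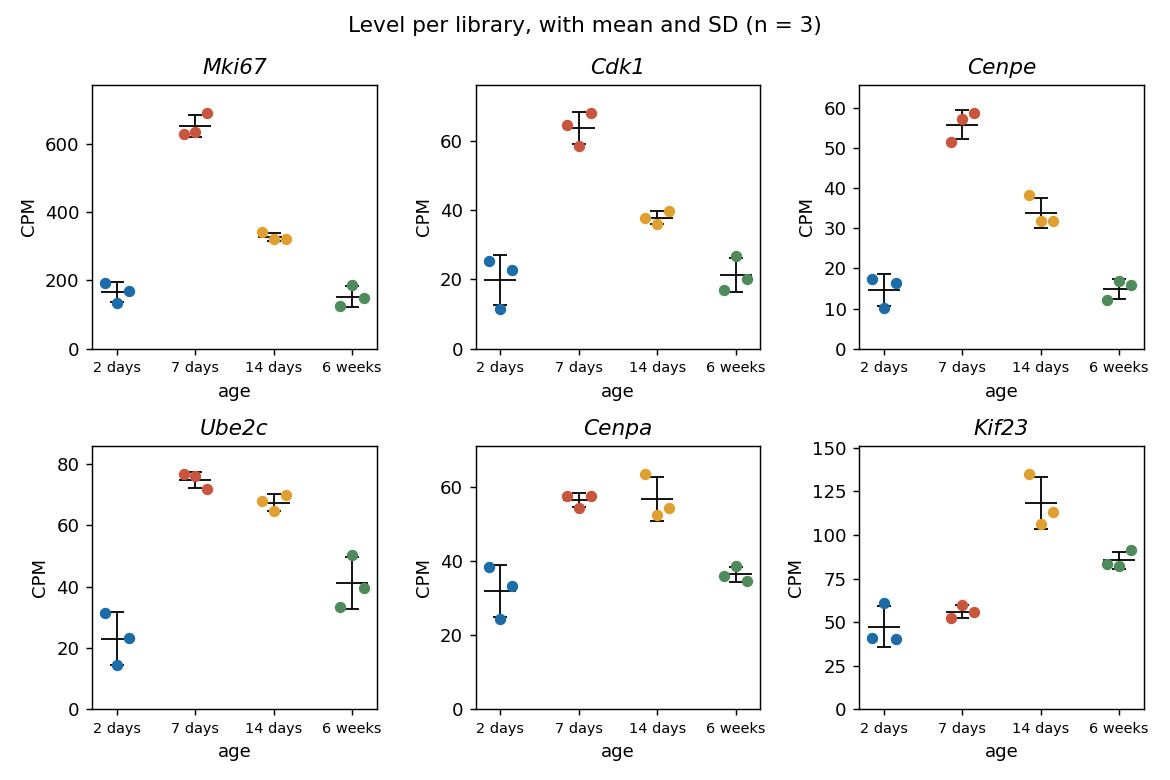
CPM of 6 genes in each library (points), by age, with the mean and SD of 3 libraries; each vertical axis is linear and starts at 0. Mki67, Cdk1 and Cenpe peak at 7 days, Ube2c and Cenpa have 14-day means close to their 7-day means, and Kif23 is highest at 14 days, at 106 to 135 CPM.

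All 7 cyclins and kinases of mitosis were higher at 7 than at 2 days, 2 of 7 were lower at 14 than at 7 days, and 4 of 7 were lower at 6 weeks than at 14 days. Cdk1, the kinase that drives entry into mitosis, stood at 25.2, 11.5 and 22.8 CPM at 2 days and 64.5, 58.6 and 67.9 at 7 days. Cdk1 then had 37.8, 36.01 and 39.7 CPM at 14 days and 16.9, 26.6 and 19.99 at 6 weeks. Its 3 libraries of 7 days were highest, those of 14 days lay between, and those of 2 days and 6 weeks overlapped. Cdk1 rose at 7 over 2 days (log2 fold change 1.68 ± 0.24, adjusted p = 0.000149) and fell by 0.75 at 14 over 7 days (adjusted p = 0.0207) and by 0.84 at 6 weeks over 14 days (adjusted p = 0.0289). Ccna2 encodes cyclin A2, a partner of Cdk1 and Cdk2 in S phase and early mitosis, and had 46.99, 18.2 and 37.6 CPM at 2 days and 105, 100.4 and 104 at 7 days. Ccna2 then had 69.1, 59.6 and 59.9 CPM at 14 days and 30.2, 49.6 and 36.6 at 6 weeks. The 4 ages were separate apart from 2 days and 6 weeks, and the largest change was again that of 7 over 2 days (1.59 ± 0.27, adjusted p = 0.000533). At 6 weeks over 14 days Ccna2 did not pass (-0.70, adjusted p = 0.0916). Aurka, the kinase that matures centrosomes and builds the spindle poles, had 18.7, 8.695 and 12.8 CPM at 2 days and 52.6, 47.7 and 51.03 at 7 days. Aurka then had 41.2, 30.4 and 33.3 CPM at 14 days and 15.1, 23.3 and 16.7 at 6 weeks. Each 7-day library lay above each 14-day library, yet the difference of 14 over 7 days did not pass (-0.53, adjusted p = 0.0833), whereas those of 7 over 2 days (1.91 ± 0.24, adjusted p = 6.38e-05) and 6 weeks over 14 days (-0.93, adjusted p = 0.0175) did.

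The B-type cyclins, the partners of Cdk1 in mitosis proper, had their highest means at different ages. Ccnb1 had mean levels of 20.1 ± 8.29 CPM at 2 days, 49.2 ± 2.43 at 7 days, 33.9 ± 2.58 at 14 days and 20.8 ± 4.08 at 6 weeks, highest at 7 days. Ccnb2, chosen after its values were seen for its highest mean at 14 days, stood at 29.4, 14.1 and 22 CPM at 2 days and 49.6, 49.3 and 50.3 at 7 days. Ccnb2 then had 61.5, 57.6 and 57.98 CPM at 14 days and 27.7, 46.1 and 31.2 at 6 weeks. Its libraries of 14 days all lay above those of 7 days, although the difference did not pass (0.25 ± 0.23, adjusted p = 0.396). Relative to 2 days, Ccnb2 was higher at 6 weeks (0.68, adjusted p = 0.0324), where Ccnb1 gave 0.05, adjusted p = 0.897; the difference between the 2 genes was not tested. Plk1, a kinase of many mitotic steps, had mean levels of 19.02 ± 8.75 CPM at 2 days, 62.7 ± 4.94 at 7 days, 51.9 ± 2.69 at 14 days and 32.7 ± 8.72 at 6 weeks and was higher at 6 weeks than at 2 days (0.78, adjusted p = 0.0374). Nek2, a kinase that parts the centrosomes, had mean levels of 9.304 ± 4.78 CPM at 2 days, 21.1 ± 0.93 at 7 days, 16.3 ± 0.953 at 14 days and 7.73 ± 1.33 at 6 weeks, and at 14 over 2 days its difference was 0.81, adjusted p = 0.0596.

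The centromere and outer kinetochore genes rose 6 of 6 at 7 over 2 days and fell 6 of 6 at 6 weeks over 14 days. Between these, 2 of 6, Cenpe and Cenpf, fell at 14 over 7 days. Cenpe encodes a kinesin that carries chromosomes to the spindle equator, and had 17.4, 10.04 and 16.3 CPM at 2 days and 51.7, 57.3 and 58.7 at 7 days. Cenpe then had 38.3, 31.8 and 31.8 CPM at 14 days and 12.04, 16.9 and 15.8 at 6 weeks. Its values at 6 weeks lay inside the range of 2 days, and those of 7 days were all above those of 14 days. The log2 fold change was 1.93 ± 0.19, adjusted p = 1.1e-05 at 7 over 2 days, -0.72, adjusted p = 0.00794 at 14 over 7 days and -1.19, adjusted p = 0.00133 at 6 weeks over 14 days. Cenpa, the histone H3 variant that defines the centromere, had 38.4, 24.4 and 33.2 CPM at 2 days and 57.6, 54.3 and 57.6 at 7 days. Cenpa then had 63.6, 52.5 and 54.4 CPM at 14 days and 36.1, 38.6 and 34.7 at 6 weeks. The 14-day and 7-day libraries overlapped (0.01, adjusted p = 0.964), and so did those of 6 weeks and 2 days. Cenpa rose at 7 over 2 days (0.82 ± 0.14, adjusted p = 0.000638) and fell by 0.64 at 6 weeks over 14 days (adjusted p = 0.00925). Cenpf, a large protein of the kinetochore corona, had mean levels of 14.3 ± 4.65 CPM at 2 days, 55.7 ± 2.06 at 7 days, 36.1 ± 0.756 at 14 days and 16.7 ± 3.16 at 6 weeks. Ndc80, Nuf2 and Spc25, subunits of the complex that grips microtubules, rose by 1.65, 1.94 and 1.39 on the log2 scale at 7 over 2 days and gave -0.39, -0.50 and -0.20 at 14 over 7 days, none of which passed.

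Of the spindle checkpoint genes, 4 of 4 rose at 7 over 2 days, 2 of 4 (Mad2l1 and Ttk) fell at 14 over 7 days and 4 of 4 fell at 6 weeks over 14 days. Bub1b, which encodes BubR1, a part of the complex that inhibits the anaphase-promoting complex, had 26.2, 13.6 and 19.5 CPM at 2 days and 64.2, 58.5 and 58.4 at 7 days. Bub1b then had 41.9, 41.95 and 47.1 CPM at 14 days and 23, 33.8 and 26.3 at 6 weeks. Its ages were separate apart from 2 days and 6 weeks, with changes of 1.61 ± 0.20, adjusted p = 5.94e-05 at 7 over 2 days and -0.47, adjusted p = 0.0704 at 14 over 7 days, of which the second did not pass. Mad2l1 encodes Mad2, another part of that complex, and its level was 16.4, 10.5 and 15.98 CPM at 2 days and 40.6, 34.4 and 39.7 at 7 days. Mad2l1 then had 22.9, 18.5 and 17.8 CPM at 14 days and 10.8, 13.1 and 12.3 at 6 weeks. The 14-day libraries lay above those of 2 days, but not by enough to pass: at 14 over 2 days Mad2l1 gave 0.47, adjusted p = 0.0639, while Bub1b gave 1.14, adjusted p = 0.00141. Mad2l1 rose at 7 over 2 days (1.42 ± 0.17, adjusted p = 4.23e-05) and fell by 0.95 at 14 over 7 days (adjusted p = 0.00077). Ttk, the kinase that starts checkpoint signalling, had mean levels of 3.94 ± 1.26 CPM at 2 days, 14.5 ± 0.886 at 7 days, 8.85 ± 0.535 at 14 days and 4.43 ± 0.828 at 6 weeks, and Bub1, a kinetochore kinase, had mean levels of 7.78 ± 2.53 CPM at 2 days, 23.4 ± 1.13 at 7 days, 16.3 ± 1.66 at 14 days and 9.298 ± 1.84 at 6 weeks.

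The 4 genes of the chromosomal passenger complex, which corrects faulty attachments and later moves to the central spindle, all rose at 7 over 2 days. None of the 4 passed at 14 over 7 days, and 3 of 4 fell at 6 weeks over 14 days. Incenp, the scaffold of the complex, had 59.6, 29.5 and 44.5 CPM at 2 days and 103, 103 and 102 at 7 days. Incenp then had 72.6, 77.2 and 82.3 CPM at 14 days and 44.04, 60.8 and 48.6 at 6 weeks. Its 7-day values lay within 2 CPM of each other and above all others, and the changes were 1.2 ± 0.20, adjusted p = 0.000472 at 7 over 2 days and -0.60, adjusted p = 0.0568 at 6 weeks over 14 days, where it did not pass. Cdca8 encodes borealin, which helps to place the complex on centromeres, and had 25.5, 12.2 and 19.04 CPM at 2 days and 59.7, 55.1 and 57.3 at 7 days. Cdca8 then had 47.7, 43.8 and 48.7 CPM at 14 days and 20.8, 34.6 and 26.1 at 6 weeks. The 14-day libraries lay below those of 7 days by a difference that did not pass (-0.30, adjusted p = 0.302), and the rise at 7 over 2 days was 1.60 ± 0.23, adjusted p = 0.000155. Aurkb, the kinase of the complex, had mean levels of 17.3 ± 8.398 CPM at 2 days, 42.2 ± 1.69 at 7 days, 34.8 ± 1.27 at 14 days and 18.8 ± 4.199 at 6 weeks. Birc5, the subunit called survivin, had mean levels of 17.03 ± 6.53 CPM at 2 days, 49.9 ± 3.36 at 7 days, 35.99 ± 0.661 at 14 days and 19.8 ± 5.09 at 6 weeks.

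All 8 spindle motors and spindle-binding proteins rose at 7 over 2 days, 5 of 8 fell at 14 over 7 days (Kif11, Tpx2, Nusap1, Hmmr and Dlgap5), and 7 of 8 fell at 6 weeks over 14 days. Kif11, the kinesin that pushes the spindle poles apart, had 38.1, 18.9 and 29.7 CPM at 2 days and 106, 109 and 108 at 7 days. Kif11 then had 70.2, 67.2 and 70.8 CPM at 14 days and 31.2, 41.01 and 33.6 at 6 weeks. Apart from 2 days and 6 weeks, which overlapped, its ages were separate. Kif11 rose at 7 over 2 days (1.89 ± 0.20, adjusted p = 1.53e-05) and fell by 0.63 at 14 over 7 days (adjusted p = 0.0181) and by 0.98 at 6 weeks over 14 days (adjusted p = 0.00467). Hmmr, a microtubule-binding protein of spindle poles, had the largest change of the 40 genes at 7 over 2 days (2.12 ± 0.18, adjusted p = 3.55e-06). Its values were 11.7, 6.32 and 9.18 CPM at 2 days and 37.05, 38.9 and 42.8 at 7 days. Hmmr then had 25.4, 25.8 and 25.9 CPM at 14 days and 12.1, 14.6 and 13.6 at 6 weeks. The 6-week libraries all lay just above those of 2 days (0.56, adjusted p = 0.0241). Nusap1, which bundles microtubules near chromosomes, had mean levels of 17.96 ± 4.36 CPM at 2 days, 72.02 ± 0.914 at 7 days, 40.7 ± 1.42 at 14 days and 23.7 ± 5.699 at 6 weeks, and Tpx2, which activates Aurora A on the spindle, had mean levels of 25.4 ± 7.99 CPM at 2 days, 93.6 ± 2.97 at 7 days, 61.5 ± 2.33 at 14 days and 35.6 ± 9.29 at 6 weeks. Dlgap5, which stabilises the microtubule bundles of kinetochores, gave 1.98 at 7 over 2 days. The kinesins Kif15, Kif2c and Kif4 gave 1.52, 1.79 and 1.75 at 7 over 2 days, all called, and -0.27, -0.59 and -0.62 at 14 over 7 days, none called.

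Of the genes of anaphase and mitotic exit, 4 of 4 rose at 7 over 2 days, none of 4 passed at 14 over 7 days, and 3 of 4 fell at 6 weeks over 14 days. Ube2c, the ubiquitin-conjugating enzyme of the anaphase-promoting complex, had 31.6, 14.6 and 23.2 CPM at 2 days and 76.8, 76 and 71.8 at 7 days. Ube2c then had 67.96, 64.6 and 69.8 CPM at 14 days and 33.4, 50.3 and 39.6 at 6 weeks. The ranges of the 4 ages did not overlap. Ube2c rose at 7 over 2 days (1.69 ± 0.23, adjusted p = 8.37e-05), gave -0.15, adjusted p = 0.6 at 14 over 7 days, fell by 0.71 at 6 weeks over 14 days (adjusted p = 0.0396) and was higher at 6 weeks than at 2 days (0.83 ± 0.22, adjusted p = 0.0105). Cdc20, the activator of the anaphase-promoting complex, had mean levels of 22.2 ± 10.5 CPM at 2 days, 65.8 ± 5.45 at 7 days, 58.8 ± 2.14 at 14 days and 32.8 ± 6.62 at 6 weeks. Espl1, the separase that cuts cohesin, and Cdca3, a trigger of mitotic entry, gave -0.25 and -0.22 at 14 over 7 days, and neither passed.

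Of the 5 genes of the central spindle and cytokinesis, 4 were higher at 7 than at 2 days, 1 was higher and 1 lower at 14 than at 7 days, and 4 were lower at 6 weeks than at 14 days. Kif23 was the gene higher at 14 than at 7 days, and Anln the lower one. Kif23 (ENSMUSG00000032254, chromosome 9, 61915905 to 61946774, minus strand) encodes MKLP1, a kinesin of the centralspindlin complex that bundles midzone microtubules and recruits Ect2. It had 41.01, 61.2 and 40.5 CPM at 2 days and 52.3, 59.8 and 56.1 at 7 days. Kif23 then had 135, 106 and 113 CPM at 14 days and 83.2, 82.03 and 91.2 at 6 weeks. The 7-day libraries lay inside the range of 2 days, and the 14-day and 6-week libraries all lay above both. At 7 over 2 days Kif23 gave 0.24 ± 0.16, adjusted p = 0.228, and it rose at 14 over 7 days (1.08 ± 0.16, adjusted p = 0.000202). It was also higher at 6 weeks than at 7 days (0.61, adjusted p = 0.00613) and than at 2 days (0.85, adjusted p = 0.00107), and gave -0.47, adjusted p = 0.0539 at 6 weeks over 14 days. At 2 days library 2 was the highest for Kif23 and the lowest for 39 other genes. No other annotated gene of the table overlaps Kif23.

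Anln, Prc1, Kif20a and Ect2 had their highest means at 7 days. Anln encodes anillin, which organises the contractile ring, and had 16.6, 13.3 and 15.7 CPM at 2 days and 46.8, 46.8 and 48.8 at 7 days. Anln then had 29.8, 28.8 and 32.1 CPM at 14 days and 14.3, 22.8 and 16.2 at 6 weeks. The coefficient of variation between its 2-day libraries, 10.9%, was the lowest of the 40 genes at that age, and the 7-day libraries lay above all others. Anln rose at 7 over 2 days (1.64 ± 0.16, adjusted p = 7.52e-06) and fell by 0.65 at 14 over 7 days (adjusted p = 0.00438) and by 0.77 at 6 weeks over 14 days (adjusted p = 0.00493). Prc1, which crosslinks midzone microtubules, had mean levels of 16.99 ± 6.52 CPM at 2 days, 64.7 ± 2.74 at 7 days, 46.8 ± 2.73 at 14 days and 25.6 ± 5.64 at 6 weeks. Kif20a, a kinesin needed for cytokinesis, had mean levels of 19.98 ± 8.81 CPM at 2 days, 61.4 ± 2.17 at 7 days, 47.5 ± 2.23 at 14 days and 25.6 ± 5.98 at 6 weeks. Ect2, the exchange factor that switches on RhoA at the division plane, had mean levels of 7.52 ± 2.39 CPM at 2 days, 22.5 ± 0.479 at 7 days, 18.99 ± 1.45 at 14 days and 11.02 ± 1.3 at 6 weeks and was higher at 6 weeks than at 2 days (0.55, adjusted p = 0.0401).

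Promoters of many mitotic genes carry a CHR element (cell cycle genes homology region), through which the DREAM and MuvB complexes keep them silent in resting cells and switch them on late in the cycle, and CCAAT boxes bound by NF-Y. The 250 bases before the RefSeq start of transcription (GRCm38.p6) were searched on both strands for TTTGAA or TTCGAA, forms of the CHR element, and for CCAAT. On the other strand the first form reads TTCAAA, and the CCAAT box reads as its reverse complement. Of the 40 genes 34 had a RefSeq promoter. TTTGAA or TTCGAA was found in 13 of these 34 (38.2%), against 19.6% of all 27025 promoters, and within the last 50 bases before the start in 8 (23.5%), against 3.25%. CCAAT was found in 26 (76.5%), against 37.5%, and at least 2 times in 18 (52.9%), against 11.5%. Both kinds of motif stood in 11 (32.4%), against 7.93%. The 64 other mitosis genes gave 56 promoters, of which 42.9% held TTTGAA or TTCGAA, 60.7% CCAAT and 30.4% both. Within the last 50 bases TTTGAA or TTCGAA stood in 25% of these 56. Among 33 promoters of DNA replication genes, 18.2% held TTTGAA or TTCGAA, 60.6% CCAAT and 15.2% both. These shares are a description with no test, a match is not a shown binding site, and the absence of a match says only that these letters are not in the window.

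The promoters of the 4 genes with the smallest joint p, among those given library by library by rule, that hold TTTGAA or TTCGAA are shown, so that the match can be read in its surroundings: Mki67, chr7:135716380-135716629 (minus strand); Kif11, chr19:37376132-37376381 (plus strand); Bub1b, chr2:118597961-118598210 (plus strand); and Cdk1, chr10:69352913-69353162 (minus strand), all GRCm38.p6. Each is written 5′ to 3′ on the gene's strand and ends at the base before the start, with every match to the motifs in capitals.
Mki67: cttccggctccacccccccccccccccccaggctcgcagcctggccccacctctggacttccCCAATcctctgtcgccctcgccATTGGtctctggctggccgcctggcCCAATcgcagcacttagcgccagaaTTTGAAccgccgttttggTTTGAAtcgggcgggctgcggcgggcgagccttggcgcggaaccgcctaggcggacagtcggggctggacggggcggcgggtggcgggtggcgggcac
Kif11: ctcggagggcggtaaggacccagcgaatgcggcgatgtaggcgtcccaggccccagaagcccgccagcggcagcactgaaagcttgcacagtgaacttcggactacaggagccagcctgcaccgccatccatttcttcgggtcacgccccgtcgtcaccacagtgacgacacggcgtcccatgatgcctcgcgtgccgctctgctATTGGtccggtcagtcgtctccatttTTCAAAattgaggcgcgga
Bub1b: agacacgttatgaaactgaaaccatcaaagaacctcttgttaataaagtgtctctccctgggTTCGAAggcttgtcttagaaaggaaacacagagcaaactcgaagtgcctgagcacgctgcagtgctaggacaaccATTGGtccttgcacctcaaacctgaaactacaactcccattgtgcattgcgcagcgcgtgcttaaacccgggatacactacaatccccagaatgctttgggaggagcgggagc
Cdk1: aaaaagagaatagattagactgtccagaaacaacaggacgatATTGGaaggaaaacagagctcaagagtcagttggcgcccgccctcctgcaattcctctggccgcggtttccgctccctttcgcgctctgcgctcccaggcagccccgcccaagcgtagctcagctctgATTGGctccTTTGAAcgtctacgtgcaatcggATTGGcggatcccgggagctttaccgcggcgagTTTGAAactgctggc
In Kif11 the match to TTTGAA lies on the other strand and begins 19 bases before the start, and in Cdk1 matches begin 15 and 71 bases before it, beside 3 matches to CCAAT. The matches of Mki67 begin farther out, at 98 and 116 bases, with 3 CCAAT matches upstream of them, and that of Bub1b begins at 188 bases. From 2 to 7 days the log2 fold changes of these 4 genes were 1.97, 1.89, 1.61 and 1.68, in the order shown.

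Of 64 tested mitosis genes outside the 40, 51 were higher and 2 lower at 7 than at 2 days (median 1.32), 2 were higher and 24 lower at 14 than at 7 days (-0.36), 2 were higher and 35 lower at 6 weeks than at 14 days (-0.80), and 9 were higher and 5 lower at 6 weeks than at 2 days (0.21). In the same order, the shares of all genes higher were 22.9%, 24%, 9.26% and 19.7%. Those lower were 25.8%, 21.9%, 9.68% and 20.7%. The count of 24 was 39 when the 2 ages were fitted alone. Single libraries moved other counts. The 2 lower at 7 than at 2 days were 1 with library totals alone. The 2 higher at 14 than at 7 days were 1 without library 3 of 7 days or with library totals alone, and the 2 higher at 6 weeks than at 14 days were 1 without library 2 or 3 of 14 days or library 1 or 3 of 6 weeks. The 35 lower at 6 weeks than at 14 days were 53 without library 2 of 2 days, 23, 20 and 22 without library 1, 2 or 3 of 14 days, and 13 and 15 without library 1 or 3 of 6 weeks. The 9 higher at 6 weeks than at 2 days were 25 without library 1 and 5 without library 3 of 2 days, and 4 without library 2 of 6 weeks; they were 4 with the 2 ages fitted alone and 3 with library totals alone. The 5 lower were 15 without library 2 of 2 days and 2 without library 1 or 3 of either age or with the 2 ages fitted alone. Smc4, a condensin subunit that compacts chromosomes, had mean levels of 68 ± 1.25 CPM at 2 days, 172 ± 1.58 at 7 days, 103 ± 8.598 at 14 days and 64.2 ± 3.06 at 6 weeks. Kif20b, a kinesin of cytokinesis, had mean levels of 7.797 ± 0.776 CPM at 2 days, 29.98 ± 0.701 at 7 days, 17.1 ± 1.03 at 14 days and 7.83 ± 1.99 at 6 weeks. Of 22 regulators of mitotic genes, 14 were higher and 2 lower at 7 than at 2 days, and 6 were lower at 6 weeks than at 14 days with none higher. That count of 6 was 10 without library 2 of 2 days or with the 2 ages fitted alone, 3 without library 3 of 14 days, and 1 and 2 without library 1 or 3 of 6 weeks. Foxm1, the transcription factor that drives late cell cycle genes, had mean levels of 23.4 ± 8.88 CPM at 2 days, 85.6 ± 2.65 at 7 days, 59.2 ± 3.38 at 14 days and 29.9 ± 7.103 at 6 weeks. Rbl1, which encodes p107, a pocket protein of the DREAM complex, had mean levels of 16.4 ± 4.83 CPM at 2 days, 43.1 ± 1.52 at 7 days, 30.4 ± 2.13 at 14 days and 23.1 ± 2.84 at 6 weeks.

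The mitosis genes were set beside 40 DNA replication genes, which act in S phase. At 7 over 2 days 39 of 40 mitosis genes (median 1.63) and 35 of 40 replication genes (1.18) were higher, and none of either list was lower. At 14 over 7 days 14 mitosis genes (median -0.49) and 33 replication genes (-1.23) were lower. The mitosis count of 14 was 8 to 26 when single libraries were left out, and 34 with the 2 ages fitted alone. At 14 over 2 days 38 mitosis genes were higher and none was lower (median 1.2), whereas 3 replication genes were higher and 2 lower (-0.01). At 6 weeks over 2 days 6 mitosis genes were higher and none was lower (median 0.31), whereas 24 replication genes were lower and none was higher (-0.66). Over all genes 22.9% were higher at 7 over 2 days, and 21.9% were lower at 14 over 7 days. The shares higher and lower were 12.8% and 12.3% at 14 over 2 days, and 19.7% and 20.7% at 6 weeks over 2 days. The difference between the lists was not tested. The mitosis median of 0.31 was 0.57 without library 1 and 0.10 without library 2 of 2 days, and 0.16 without library 2 of 6 weeks. The count of 24 was 8 without library 1 or library 3 of 2 days or library 3 of 6 weeks, 10 without library 1 of 6 weeks, 14 without library 1 and 15 without library 3 of 7 days, and 15 without library 2 of 14 days. It was 9 with the 2 ages fitted alone, 14 with library totals alone and 15 with limma-voom. At 14 over 2 days the replication genes ranged from 0 to 5 higher and from 0 to 14 lower when single libraries were left out, with 5 higher without library 1 and 14 lower without library 2 of 2 days. Ccne2, which encodes cyclin E2 of the entry into S phase, had mean levels of 5.84 ± 0.0988 CPM at 2 days, 20.4 ± 3.02 at 7 days, 6.12 ± 0.787 at 14 days and 2.89 ± 0.278 at 6 weeks. Orc6, a subunit of the origin recognition complex, had mean levels of 10.9 ± 1.57 CPM at 2 days, 20.5 ± 2.39 at 7 days, 7.34 ± 0.446 at 14 days and 4.12 ± 0.78 at 6 weeks.

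**Figure D4:**
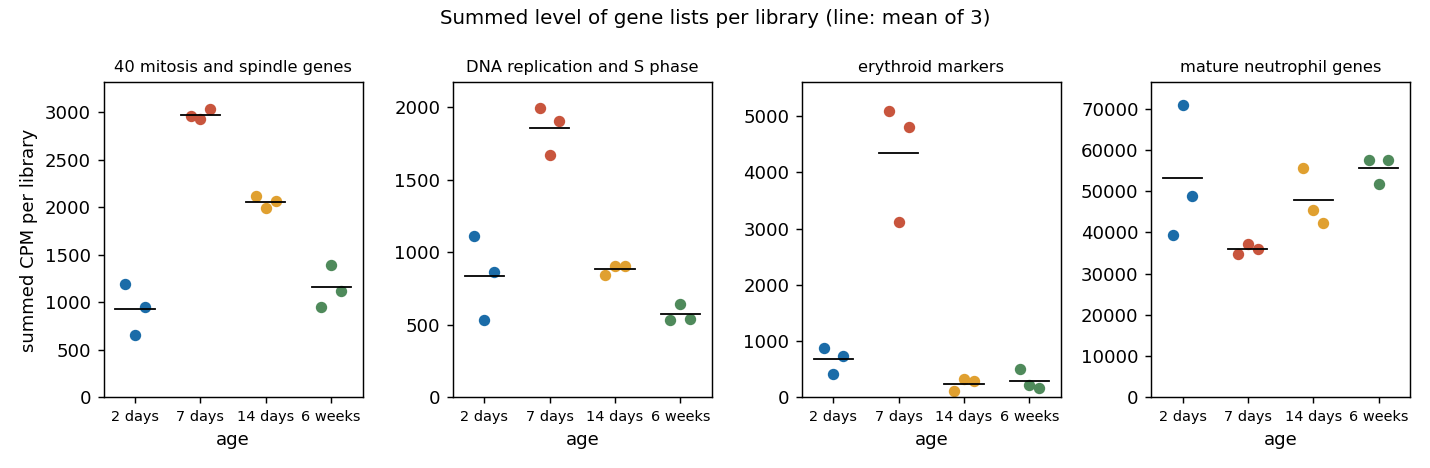
Summed CPM per library (points, with the mean of 3 as a line) of the 40 mitosis and spindle genes, 40 DNA replication genes, 21 erythroid markers and 17 mature neutrophil genes, by age. The mitosis sum at 14 days (1986 to 2112 CPM) lies above that at 2 days (659 to 1194 CPM), whereas the replication sums of these ages overlap and the erythroid sum at 14 days (117 to 321 CPM) lies below that at 2 days (416 to 873 CPM).

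Markers of some other cells were higher at 7 than at 2 days, as the mitosis genes were. Over all genes 22.9% were higher in that comparison, and 12.8% were higher and 12.3% lower at 14 over 2 days. Of 21 erythroid markers 20 were higher at 7 than at 2 days and none was lower, and their summed level was 416 to 873 CPM at 2 days, 3121 to 5085 at 7 days, 117 to 321 at 14 days and 161 to 498 at 6 weeks. Tal1, a transcription factor of red cell precursors, averaged 39.3 ± 5.38 CPM at 7 days, against 14.02 ± 2.73 at 2 days, and Tfrc, the transferrin receptor, 151 ± 12.4 CPM at 7 days, against 40.3 ± 11.3 at 2 days. At 14 over 2 days none of the 21 was higher and 13 were lower, while 38 of the 40 mitosis genes were higher. Of 12 B cell markers 8 were higher and none lower at 7 over 2 days, with sums of 302 to 393 CPM at 2 days, 622 to 713 at 7 days, 158 to 427 at 14 days and 416 to 534 at 6 weeks. At 14 over 2 days 1 was higher and 4 were lower, with 2 higher when library 1 of 14 days was left out. Rag1, a recombinase of lymphocyte precursors, averaged 33.1 ± 3.45 CPM at 7 days, against 13.3 ± 4.62 at 2 days, and Cr2, a complement receptor, 19.8 ± 0.908 CPM at 7 days, against 1.55 ± 0.571 at 2 days. Of 20 heat-shock genes 19 were higher at 7 than at 2 days, with sums of 1972 to 3019 CPM at 2 days, 35410 to 40540 at 7 days, 1696 to 1813 at 14 days and 1783 to 2082 at 6 weeks. Hspa4l, a chaperone, averaged 263 ± 12.1 CPM at 7 days, against 40.5 ± 2.27 at 2 days, and Stip1, a co-chaperone, 416 ± 23.5 CPM at 7 days, against 47.5 ± 3.81 at 2 days. The part of each of these in the 7-day level of the mitosis genes was not tested.

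In 4 further lists more markers were called higher than lower at both 7 and 14 days over 2 days. The shares of all genes were 22.9% higher and 25.8% lower at 7 days, and 12.8% and 12.3% at 14 days. Of 14 monocyte and macrophage markers 9 were higher and 1 was lower in each comparison, with sums of 943 to 1308 CPM at 2 days, 2278 to 2331 at 7 days, 1340 to 1694 at 14 days and 4252 to 4549 at 6 weeks. The markers with the smallest joint p were F13a1, a clotting factor subunit, at 20.5 ± 4.35 CPM at 7 days, against 58.2 ± 6.897 at 2 days, and Cx3cr1, the fractalkine receptor, at 8.57 ± 2.27 CPM at 7 days, against 9.09 ± 0.92 at 2 days. Unlike most of the list, neither had a higher mean at 7 than at 2 days. At 14 days and 6 weeks F13a1 averaged 8.25 and 2.08 CPM, and Cx3cr1 45.2 and 35.6. Of 12 T and NK cell markers 6 were higher and 2 lower at 7 over 2 days. At 14 over 2 days 5 were higher, but 2 or 3 when any library but the first of 2 days or of 14 days was left out, 2 with the 2 ages fitted alone and 3 with library totals alone or limma-voom, and 2 were lower, or 1 without library 3 of 2 days or of 14 days or with the 2 ages fitted alone. Their sums were 70.6 to 91.5, 105 to 141, 55.2 to 107 and 162 to 197 CPM from the youngest age to the oldest, so that those of 14 and 2 days overlapped. Cd4, the T helper coreceptor, averaged 20.2 ± 2.42 CPM at 7 days, against 2.43 ± 0.56 at 2 days, and Klrb1c, the NK1.1 receptor, 1.47 ± 0.362 CPM at 7 days, against 4.54 ± 1.86 at 2 days. Of 7 eosinophil markers 5 were higher and 1 lower at 7 over 2 days, with 3 higher without library 3 of 2 days or library 1 of 7 days, and 4 were higher and none lower at 14 over 2 days. Their sums were 62.9 to 114, 197 to 262, 183 to 224 and 176 to 203 CPM. Ccr3, the eotaxin receptor, averaged 15.2 ± 2.09 CPM at 7 days, against 1.37 ± 0.242 at 2 days, and Ear2, a ribonuclease, 57.6 ± 3.22 CPM at 7 days, against 18.4 ± 3.601 at 2 days. Of 8 dendritic cell markers 4 were higher at 7 over 2 days (2 with the 2 ages fitted alone) and 6 were higher and 1 lower at 14 over 2 days, with sums of 33.7 to 56.2, 55.1 to 69.2, 86.8 to 124 and 82.8 to 107 CPM. Cd209a, a lectin, averaged 1.85 ± 0.28 CPM at 7 days, against 0.449 ± 0.339 at 2 days, and Zbtb46, a transcription factor, 3.698 ± 0.523 CPM at 7 days, against 1.31 ± 0.619 at 2 days. No marker of these lists was at 0 at any age, and their part in the mitosis gene levels was not tested. The sums of the monocyte and T cell lists were highest at 6 weeks.

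In 4 lists more markers were called lower than higher at 7 over 2 days, against 25.8% of all genes lower and 22.9% higher. All 10 mast cell markers were lower, with sums of 3917 to 6446 CPM at 2 days, 603 to 813 at 7 days, 996 to 1075 at 14 days and 1404 to 1607 at 6 weeks, and Mrgprb1 and Tpsab1 were at 0 at 14 days and 6 weeks. Although the sums rose after 7 days, 9 of the 10 markers were lower and 1 higher at 14 than at 7 days (median -4.89). The counts were the same at 6 weeks over 7 days (median -3.76). Cpa3, a mast cell carboxypeptidase, averaged 13.5 ± 1.99 CPM at 7 days, against 693 ± 185 at 2 days, and Cma1, a chymase, 14.8 ± 2.52 CPM at 7 days, against 842 ± 255 at 2 days. Of 9 stromal and endothelial markers 5 were lower and none was higher (3 without library 1 of 2 days, and 1 without library 1 of 14 days, with no low-count filter or with limma-voom), with sums of 59.2 to 138, 76.3 to 85.3, 49.8 to 55.6 and 75.2 to 79.9 CPM from the youngest age to the oldest. Sparc, a matrix protein, averaged 11.5 ± 2.26 CPM at 7 days, against 9.29 ± 5.44 at 2 days, and Col3a1, a collagen, 3.14 ± 0.835 CPM at 7 days, against 16.5 ± 10.8 at 2 days. Of 8 stem and progenitor genes 2 were higher (1 without library 2 or 3 of 2 days or library 3 of 7 days) and 4 lower, with sums of 203 to 431, 139 to 165, 84.9 to 119 and 51.2 to 77.5 CPM. Gata2, a transcription factor of stem and mast cells, averaged 14.5 ± 1.75 CPM at 7 days, against 124 ± 48.95 at 2 days, and Cd34, a surface mark of progenitors, 11.5 ± 1.21 CPM at 7 days, against 34.5 ± 15.3 at 2 days. Of 8 megakaryocyte and platelet markers 1 was higher and 2 were lower, shares no larger than those of all genes. The sums of the list were 53.2 to 58.3, 26.4 to 34.0, 27.3 to 28.6 and 17.9 to 18.7 CPM, and Gp6 was at 0 at 6 weeks. Itga2b, an integrin of platelets, averaged 7.89 ± 0.959 CPM at 7 days, against 24.6 ± 3.89 at 2 days, and Vwf, von Willebrand factor, 4.23 ± 0.506 CPM at 7 days, against 4.97 ± 0.542 at 2 days. The part of these lists in the mitosis gene levels was not tested.

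Of 17 genes of mature neutrophils 11 were lower at 7 than at 2 days and none was higher, against 25.8% of all genes lower; the count was 6 without library 1 or library 3 of 7 days, and 1 was higher with library totals alone. Il1b, an inflammatory cytokine, averaged 76.3 ± 14.4 CPM at 7 days, against 405 ± 160.0 at 2 days, and Ccl6, a chemokine, 74.2 ± 6.26 CPM at 7 days, against 411 ± 219 at 2 days. Within the 2-day group the summed level of mature neutrophil genes was 39450 CPM in library 1, 70950 in library 2 and 48880 in library 3, the reverse of the order of the mitosis sums of 1194, 659 and 947 CPM. Within the 6-week group library 2, highest for the mitosis genes at 1396 CPM, had the lowest mature neutrophil sum, 51830 CPM, against 57590 and 57450 in libraries 1 and 3. At 14 days library 1 was the highest for both, with 2112 CPM for the mitosis genes and 55710 for the mature neutrophil genes, against 45440 and 42320 in libraries 2 and 3. At 7 days library 2 was the lowest for the mitosis genes, at 2921 CPM, and the highest for the mature neutrophil genes, at 37200. These orders over 3 libraries are a description with no test. A list of 9 genes of granulocyte precursors held primary granule genes beside others such as Cebpe, Gfi1 and Hp. In it 3 were higher and 2 lower at 7 over 2 days, against 22.9% of all genes higher and 25.8% lower. Without library 1 of 2 days 5 were higher, without library 3 of 2 days or with the 2 ages fitted alone 1 was higher, and 1 was lower without library 1 or 3 of 2 days or library 2 or 3 of 7 days or with library totals alone. Fcnb, the ficolin gene of granulocyte precursors, had mean levels of 46.5 ± 18.8 CPM at 2 days, 167 ± 11.2 at 7 days, 218 ± 13.03 at 14 days and 94.3 ± 21.2 at 6 weeks, whereas Ctsg, cathepsin G of the primary granules, had mean levels of 29.3 ± 9.97 CPM at 2 days, 14.96 ± 2.91 at 7 days, 2.895 ± 0.714 at 14 days and 2.85 ± 0.838 at 6 weeks.

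Of the 40 genes 12 overlap another annotated gene of the table, and 8 of these overlap a protein-coding gene on the opposite strand, namely Ccna2, Cdca8, Cdc20, Kif20a, Kif4, Nusap1, Prc1 and Ube2c. The overlap is of whole gene spans, introns included. Nothing in the labels tells if the libraries kept strand, and reads of shared exon bases could then not be told apart. Of the genes given library by library above, Ccna2, Cdca8 and Ube2c are among the 8. Their partners Exosc9, 9930104L06Rik and Tnnc2 had 4391, 3443 and 34 counts over all libraries. An effect on the levels of the 40 genes was not tested.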

How the data were processed

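RNA of 12 libraries was compared between 4 ages, the group of each library coming from its labels. The deposited table holds whole-number counts per Ensembl gene; the authors used the build mm10, RSEM 1.2.3 and DESeq2, per the submitters' processing notes, which do not give the role of each. RSEM estimates counts, so the deposited counts may be rounded estimates that divide reads among similar genes. Of 38887 identifiers, 37570 matched a GENCODE M21 gene, whose assembly GRCm38 is that of mm10.

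Counts were scaled with trimmed mean of M-values factors, 15494 genes passed filterByExpr (minimum count 10), and differences were tested with the quasi-likelihood test of edgeR 4.0.16 in R 4.3.3, 1 model over 12 libraries with age as the term, adjusted over all tested genes by the Benjamini-Hochberg method (threshold 0.05). CPM uses the scaled library sizes. Exon length per gene is the union of its GENCODE exons. The script was checked on simulated counts. Alternatives were library totals alone, DESeq2-type size factors, no filter, DESeq2 1.42.0, limma-voom (limma 3.58.1), a replicate block, the libraries of 2 ages alone, and leaving out each library.

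The members and lists were chosen with earlier results of these data known. In each role group the gene with the highest mean and the gene with the smallest joint p were given library by library, with Mki67 and Cdk1; Ccnb2 was added after its values were seen. Of each other list the 2 genes with the smallest p and a mean of at least 5 CPM were named where the list is described. Promoters came from RefSeq (GRCm38.p6), and those printed are of the 4 genes with the smallest joint p, among those given in full by the rule, that hold TTTGAA or TTCGAA; matches to CCAAT did not count. No pair of libraries was close enough to be counted as 1 sample. Over all genes together, libraries of the same age differed by more than counting error. For single genes with a narrow spread, such as Incenp at 7 days (coefficient of variation 0.767%), this was not shown.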

Additional observations from a re-analysis of the deposited data

How the results depend on the processing

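All 40 genes differed across ages under every alternative that fitted all ages together. Among genes called in a pair of ages, no fold change reversed its direction. Signs of genes not called did change. At 6 weeks over 2 days 37 genes were above 0 and 3 below in the main fit. These were 26 and 14 without library 2 of 2 days, and 30 and 10 without library 2 of 6 weeks. The count higher at 7 over 2 days stayed at 39 to 40, that lower at 6 weeks over 7 days at 37 to 39, and that higher at 14 over 2 days at 32 to 40. The 39 genes called at 7 over 2 days passed in 741 of 741 gene and alternative pairs, those of 6 weeks over 14 days in 489 of 627, of 14 over 7 days in 248 of 285 and of 6 weeks over 2 days in 81 of 114. With the 2 ages fitted alone, 2 genes were higher and 34 lower at 14 over 7 days, and 1 gene was higher at 6 weeks over 2 days, where library totals alone gave 2. Leaving out 1 library in turn gave 2 to 21 genes higher and 0 to 2 lower at 6 weeks over 2 days, 8 to 26 lower at 14 over 7 days and 9 to 40 lower at 6 weeks over 14 days. The cause was not tested. With library totals alone the median over all genes was 0.14, against -0.01, at 7 over 2 days and -0.16, against 0.01, at 6 weeks over 7 days, where 40.7% of the called genes were higher, against 52.1%.

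Replicate numbers did not pair the libraries: 2 of 18 same-numbered pairs correlated above 0.1 (range -0.253 to 0.202), and 3 of 12 libraries were closest to their own number. With the number as a block, 3 genes were higher at 6 weeks over 2 days, and no other count of the 40 genes moved by more than 1.5 times.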

Other observations

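Genes that hold cells back from the cycle or bring cells into it were measured in the same libraries. Of 12 tested cell cycle inhibitors 1 was higher and 5 were lower at 7 than at 2 days, 6 were higher and none lower at 14 than at 7 days, and 3 were lower and none higher at 6 weeks than at 14 days (edgeR, adjusted p under 0.05). In the same order, the shares of all genes higher were 22.9%, 24% and 9.26%, and those lower were 25.8%, 21.9% and 9.68%. At 6 weeks over 2 days 19.7% of all genes were higher and 20.7% lower. The 5 lower at 7 over 2 days were 3 without library 3 of 2 days or library 1 or 3 of 7 days, and the 1 higher was 2 without library 2 of 2 days or library 1 of 14 days, with library totals alone or with the 2 ages fitted alone. The 6 higher at 14 over 7 days were 2 without library 1 of 7 days and 3 without library 3 of 7 days or library 1 of 14 days. The 3 lower at 6 weeks over 14 days were 1 without library 1 of 14 days or any library of 6 weeks, and 1 gene was higher without library 2 of 2 days and 2 with the 2 ages fitted alone. Trp53inp1, a p53-induced gene, had mean levels of 558 ± 215 CPM at 2 days, 126 ± 16.9 at 7 days, 200.1 ± 15.97 at 14 days and 205 ± 29.4 at 6 weeks (SD, n = 3 libraries), lowest at the age where 37 of the 40 mitosis genes had their highest mean. Cdkn1a, which encodes the inhibitor p21, had mean levels of 25.1 ± 3.71 CPM at 2 days, 23.8 ± 0.762 at 7 days, 34.9 ± 11.3 at 14 days and 7.904 ± 0.171 at 6 weeks, and fell by 2.14 on the log2 scale at 6 weeks over 14 days (adjusted p = 3.57e-05). Of 8 genes of cell cycle entry 3 were higher at 7 than at 2 days, 1 was higher and 4 were lower at 14 than at 7 days, and 2 were higher and 4 lower at 6 weeks than at 2 days. The 3 were 6 without library 1 of 2 days, and the 4 lower at 6 weeks than at 2 days were 2 without library 1 or 3 of either age or with the 2 ages fitted alone. Myc, a transcription factor of growth, had mean levels of 19.9 ± 8.15 CPM at 2 days, 62.4 ± 6.498 at 7 days, 29.2 ± 10.1 at 14 days and 18.3 ± 1.87 at 6 weeks. Ccnd1, which encodes cyclin D1, had mean levels of 8.08 ± 1.77 CPM at 2 days, 12.1 ± 1.69 at 7 days, 24.9 ± 8.01 at 14 days and 48.9 ± 10.99 at 6 weeks, and was higher at 6 weeks than at 2 days (2.59 ± 0.26, adjusted p = 1.1e-05).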
